A study of Mus musculus with 8 samples.

Results

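The Rab GTPases are the largest branch of the Ras superfamily of small GTP-binding proteins, and each marks particular membranes of the secretory and endocytic pathways. A Rab protein carries lipid anchors at its C terminus and is delivered to a membrane by escort proteins and GDP dissociation inhibitors. An exchange factor (GEF) loads it with GTP, the active protein recruits effectors such as tethers, motors and lipid phosphatases, and a GTPase-activating protein (GAP) ends the signal. In microglia, the macrophages of the brain, these switches order the steps from phagocytic uptake to lysosomal digestion and from the Golgi to the release of cytokines.

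The family was defined by name, as the protein-coding mouse genes with a symbol made of Rab, a number and at most 1 letter. Of 52636 genes in the count table, 59 met this rule. RNA sequencing had been done on primary murine microglia of mice labelled C57BL/6 and wild type (WT), for which the methods name C57BL/6N pups, shaken off mixed glial cultures of neonatal brain and kept in medium with 10% serum and 10 ng/ml of the survival factor CSF-1. Both groups shared these conditions, and they differed only in a 24 h exposure to 5 µg/ml of the bacterial lipopolysaccharide LPS, or to vehicle. Each group held 4 libraries, which the labels number as biological replicates without naming the culture or litter behind each number. These were cultured cells, removed from neurons and from the tissue, at a single dose and a single time.

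The libraries held 20071921 to 30604447 counts, and LPS replicate 3 was the deepest. Levels are given as CPM, the usual count of a gene relative to the size of its library, on library sizes scaled by TMM, which aligns libraries on the bulk of their genes, and changes were tested with edgeR's quasi-likelihood test with Benjamini-Hochberg adjustment over 13847 genes. A change was called at an adjusted p under 0.05. The TMM factors ranged from 1.21 to 1.32 in vehicle and from 0.701 to 0.833 after LPS, so the direction of moderate changes rested on this scaling. Scaling to total counts alone lowered the median log2 fold change of all genes from -0.11 to -0.79, a shift of -0.68. The summed CPM of 10 microglial markers was 5915 to 7966 in vehicle and 1357 to 1573 after LPS, with 8 of the 10 called lower and none higher, and none of them was at or under 3 counts throughout. The summed CPM of 8 astrocyte markers was 19.99 to 46.8 in vehicle and 41.0 to 123 after LPS, with 1 called higher and 3 lower. Most of the LPS sum was a single gene, Gja1, at 0.638 to 1.07 in vehicle and 28.9 to 98.1 after LPS. Aldh1l1 went the other way, from 11.1 to 12.3 in vehicle and 2.45 to 5.03 after LPS. The 8 markers of oligodendrocytes and their precursors summed to 92.8 to 146 and 17.6 to 23.4, with 4 called lower. The 6 endothelial markers summed to 31.04 to 73.4 and 163 to 254, with 3 called higher and Cldn5, Tek and Esam at or under 3 counts in every library. The 6 fibroblast markers summed to 0.496 to 4.31 and 5.30 to 21.3, with 1 called higher. Most of this LPS sum was Dcn, at 0.0355 to 0.245 in vehicle and 4.70 to 19.4 after LPS, while Col1a1, Col1a2 and Col3a1 did not rise. The part of other cells in the results was not tested, and in bulk RNA fewer cells of a type and less RNA per cell cannot be told apart.

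Rab genes moved in both directions after LPS. Rab20 and Rab31 of early endosomes, Rab11a of recycling endosomes, Rab6a and Rab29 had the largest called rises, and Rab34, Rab6b, Rab27a, Rab4a and Rab9 the largest called falls. Of the 59 genes, 46 had enough counts to be tested, 28 were called, 18 of them higher and 10 lower. The called share of 60.9% stood beside 64.1% of all tested genes. Higher calls made up 39.1% of the tested Rab genes and 30.3% of all genes, and lower calls 21.7% and 33.8%. The median log2 fold change was 0.10 for the Rab genes and -0.11 for all genes. All 28 called Rab genes, and no other tested Rab gene, had CPM ranges that did not overlap between the groups, as did 60.2% of all tested genes. With an absolute log2 fold change of at least 1 required as well, 5 were higher and 5 lower, against 16.1% and 21.7% of all genes.

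Under total count scaling 7 of the 46 tested Rab genes were called higher and 26 lower, beside 1988 and 8457 of all 13847 tested genes. The median was -0.59 against -0.79 for all genes. The 7 that were also called higher there were Rab20, Rab31, Rab6a, Rab29, Rab11a, Rab8a and Rab10. All 10 genes called lower by TMM were called lower there too. Of the other 11 higher calls, Rab5a, Rab5c, Rab21, Rab22a, Rab8b and Rab1a kept a positive log2 fold change without passing the test, and Rab18, Rab24, Rab28, Rab2b and Rab35 turned negative without passing it. As a share of unscaled counts the 59 genes together took 0.514% ± 0.00921 (SD, n = 4) in vehicle and 0.477% ± 0.00772 after LPS, without overlap between the groups. On this unscaled measure the family as a whole was lower after LPS.

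**Figure D1:**
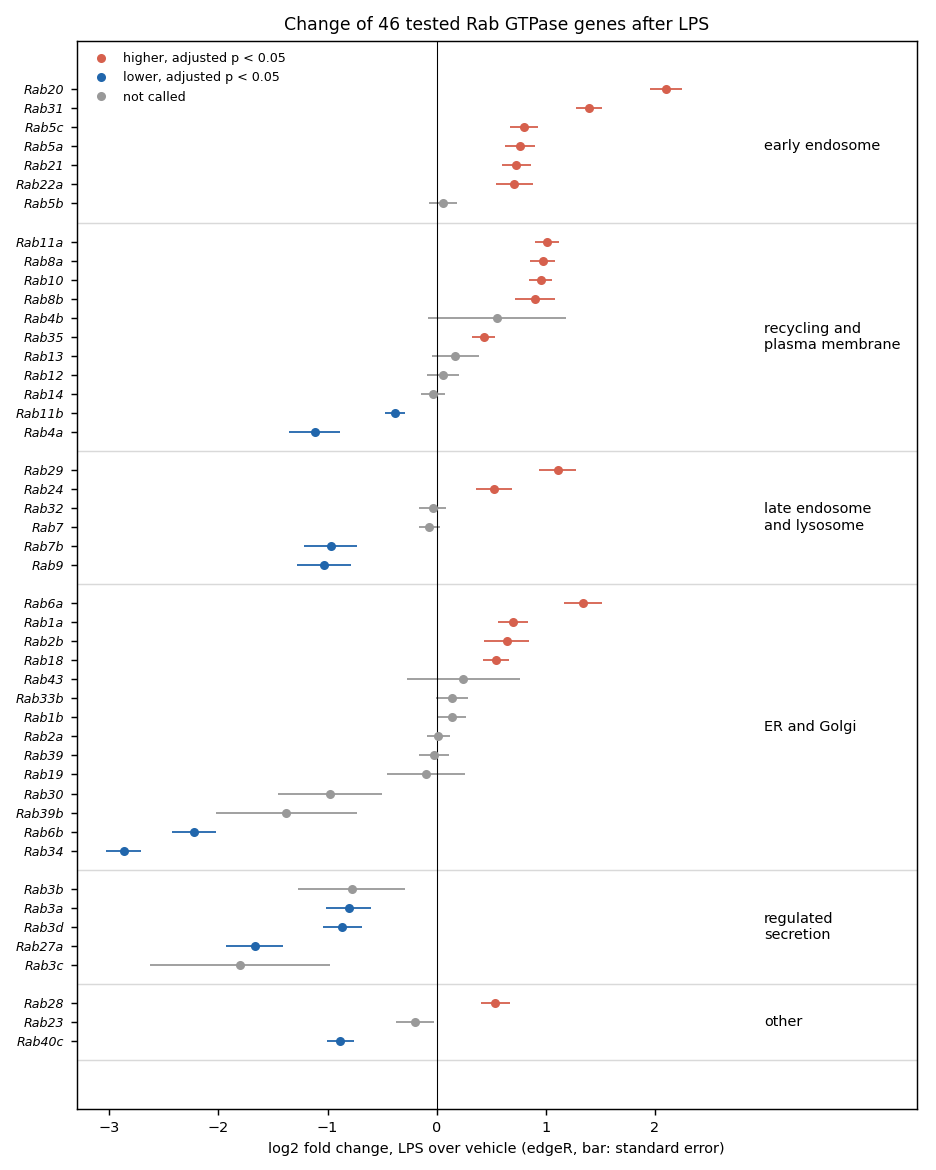
Log2 fold change of the 46 tested Rab genes (LPS over vehicle, TMM scaling), grouped by the compartment each is known for. Points are edgeR estimates from 4 libraries a group, bars are standard errors, and color marks the 18 higher, 10 lower and 18 uncalled genes; under total count scaling every point lies about 0.68 further left and 7 stay called higher.

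The genes of early endosomes, phagosomes and macropinosomes were the group with the highest share of rises by TMM. Of 7 tested members 6 were called higher and none lower, beside 30.3% and 33.8% of all tested genes. The median change was 0.76 on the log2 scale. With total count scaling 2 were higher and 1 lower, beside 1988 and 8457 of all 13847 genes. Rab17, an epithelial member and the eighth of the group, had no count in any library, which allows up to 3 counts in each.

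Rab20 (GRCm38 chromosome 8, 11453518 to 11478710), which takes part in the maturation of phagosomes and macropinosomes, had the largest rise of the tested members. Its CPM was 28.9, 23.8, 27.8 and 22.9 in vehicle replicates 1 to 4 and 85.3, 125, 109 and 126 after LPS. Every LPS library stood above every vehicle library, with LPS replicate 1 the lowest of its group. The means of 25.8 ± 2.92 and 111 ± 18.9 (SD, n = 4) gave a log2 fold change of 2.11 (SE 0.15, edgeR adjusted p = 2.27e-06). Of its exon bases, 25.6% are also covered by the opposite-strand gene E230013L22Rik, which was itself at a mean CPM of 2.25 in vehicle and 7.39 after LPS.

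Rab31 (chromosome 17, 65651729 to 65772752), a Rab5-related GTPase of early endosomes and the trans-Golgi network, was among the most abundant Rab transcripts. Its CPM was 367, 358, 323 and 373 in vehicle and 852, 1005, 895 and 988 after LPS. The groups lay far apart, with vehicle replicate 3 the lowest library. This was a log2 fold change of 1.40 (SE 0.12, edgeR adjusted p = 6.78e-06) or 2.63-fold, which total count scaling reduced to a log2 fold change of 0.72.

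The Rab5 genes, which drive fusion of incoming vesicles with early endosomes, did not move alike. Rab5c (chromosome 11, 100715009 to 100738215) had a CPM of 312, 310, 350 and 293 in vehicle and 639, 531, 460 and 572 after LPS. LPS replicate 3 was the lowest of its group for Rab5c and still above all vehicle libraries. The log2 fold change was 0.80 (SE 0.13, edgeR adjusted p = 4.62e-04) by TMM and 0.14 with total count scaling, where it was not called. Rab5a went from a mean CPM of 40.1 to 68.0, a log2 fold change of 0.76 (adjusted p = 9.83e-04), again not called with total count scaling at 0.07. Rab5b was at 57.7 ± 0.768 in vehicle and 60.3 ± 11.6 after LPS, a log2 fold change of 0.06 that did not pass the test (adjusted p = 0.687), and with total count scaling it was called lower at -0.63.

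Rab21, which sorts integrins, went from a mean CPM of 111 to 185, and Rab22a, which acts between early and recycling endosomes, from 90.4 to 148. Their log2 fold changes were 0.73 and 0.71 by TMM and 0.04 and 0.02, uncalled, with total count scaling. For both genes LPS replicate 3 was the highest library, at 237 for Rab21 and 199 for Rab22a.

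Promoter windows were taken from RefSeq (build GRCm38.p6) to set the members that moved in opposite directions beside each other. Of the 59 genes 48 had at least 1 window, 60 windows in all, and only the 250 bases before the annotated start were searched, on both strands. Shown are the windows of Rab31, Rab5c and Rab5a, early endosomal genes called higher, and of Rab34, the tested Rab gene with the largest fall. Each reads 5′ to 3′ on the strand of its gene, and capitals mark every match to the letters searched, which were GGGA and CC with any 4 bases between them (a form bound by NF-kappaB), TGANTCA (AP-1), GAAA repeated after any 2 bases (an interferon response core), CACGTG (an E-box) and TGACGTCA (a cyclic AMP response element).
Rab31, chr17:65772753-65773002, minus strand: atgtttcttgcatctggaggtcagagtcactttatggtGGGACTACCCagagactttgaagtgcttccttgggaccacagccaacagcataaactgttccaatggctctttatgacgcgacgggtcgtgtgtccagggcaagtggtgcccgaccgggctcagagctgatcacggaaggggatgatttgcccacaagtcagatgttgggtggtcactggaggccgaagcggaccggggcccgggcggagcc
Rab5c, chr11:100738216-100738465, minus strand: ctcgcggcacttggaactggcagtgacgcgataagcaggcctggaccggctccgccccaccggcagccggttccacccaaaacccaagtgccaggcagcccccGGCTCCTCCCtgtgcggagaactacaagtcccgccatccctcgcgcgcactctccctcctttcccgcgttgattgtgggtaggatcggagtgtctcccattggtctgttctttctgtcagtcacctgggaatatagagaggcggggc
Rab5a, chr17:53478984-53479233, plus strand: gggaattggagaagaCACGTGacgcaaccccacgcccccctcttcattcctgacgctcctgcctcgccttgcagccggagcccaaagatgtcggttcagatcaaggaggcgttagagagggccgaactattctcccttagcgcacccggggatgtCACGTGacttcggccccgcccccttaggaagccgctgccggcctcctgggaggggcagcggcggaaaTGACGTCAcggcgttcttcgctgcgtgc
Rab34, chr11:78188177-78188426, plus strand: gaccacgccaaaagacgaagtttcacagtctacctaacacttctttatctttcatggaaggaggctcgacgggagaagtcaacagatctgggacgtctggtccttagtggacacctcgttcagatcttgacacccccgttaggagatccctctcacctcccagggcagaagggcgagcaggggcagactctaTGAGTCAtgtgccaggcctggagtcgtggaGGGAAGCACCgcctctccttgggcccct
The NF-kappaB form stood in the Rab31, Rab5c and Rab34 windows, that of Rab5c on the opposite strand, so it occurred in genes of both directions. It was found in 10% of the Rab windows and in 17.6% of 32817 windows of all genes. Of the 17 genes called higher that had a window, 2 held this form. The windows shown all hold a match to some of the letters, while that of Rab22a, also called higher, holds none. Rab34 also held an AP-1 match (3.33% of Rab windows, 6.75% of all) and Rab5a held the cyclic AMP element (3.33% and 1.55%). The E-box occurred in 8.33% of Rab windows and 6.02% of all, among them those of Rab20, Rab21 and Rab5a, called higher, and Rab27a, called lower. The interferon core was in 1.67% of Rab windows and 2.97% of all, and in no window of a called Rab gene. A match is a description of the letters and not evidence of binding.

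**Figure D2:**
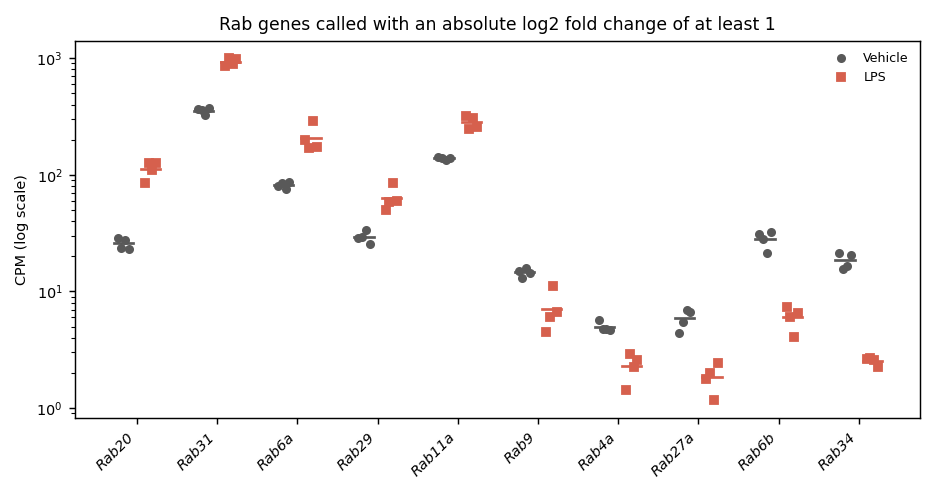
CPM (log scale, TMM library sizes) of the 10 Rab genes called with an absolute log2 fold change of at least 1. Each point is 1 library, circles for vehicle and squares for LPS, and lines are means of 4; the groups do not overlap for any of the 10 genes, and all 5 rises and 5 falls were also called with total count scaling.

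Genes of recycling endosomes and delivery to the plasma membrane held 5 rises and 2 falls among 11 tested members (median log2 fold change 0.43). Of all tested genes 30.3% were called higher and 33.8% lower. With total count scaling the group held 3 rises and 5 falls, beside 1988 and 8457 among all 13847 genes. Rab11a (chromosome 9, 64715299 to 64737758), the defining GTPase of recycling endosomes, was the leading gene of the group. Its CPM was 143, 140, 135 and 140 in vehicle and 316, 246, 305 and 257 after LPS. The vehicle libraries were nearly level and all LPS libraries stood above them. The log2 fold change was 1.01 (SE 0.11, edgeR adjusted p = 4.07e-05) by TMM and 0.33, still called, with total count scaling.

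Its paralog Rab11b (chromosome 17, 33742484 to 33760530) went the other way. Its CPM was 30.5, 26.8, 31.4 and 28.3 in vehicle and 22.5, 21.9, 22.3 and 23.0 after LPS. The ranges did not overlap and the LPS libraries hardly differed from each other. Rab11b fell by 0.38 on the log2 scale (SE 0.09, edgeR adjusted p = 0.00497). In this gene 13.6% of the 50-base exon windows also occur in other genes, chiefly the pseudogene Rab11b-ps2 and the overlapping Gm17251.

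Rab8a, Rab8b and Rab10, which carry vesicles to the cell surface, rose by TMM, unlike the members of regulated secretion described below. Their log2 fold changes were 0.97, 0.90 and 0.95, with mean CPM of 93.2 to 183, 382 to 714 and 180 to 348. With total count scaling Rab8a and Rab10 stayed called and Rab8b did not. Rab35, which serves fast endosomal recycling, went from 91.7 to 124, a log2 fold change of 0.43 that turned to -0.25, uncalled, with total count scaling.

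Rab4a (chromosome 8, 123805985 to 123835287), which returns receptors quickly from early endosomes, fell. Its CPM was 5.70, 4.80, 4.75 and 4.64 in vehicle and 1.44, 2.88, 2.24 and 2.59 after LPS. The groups did not overlap, with LPS replicate 1 the lowest library. Rab4a fell by 1.12 on the log2 scale (SE 0.23, edgeR adjusted p = 0.00213). Rab4b, Rab12, Rab13 and Rab14 were not called by TMM, with log2 fold changes of 0.55, 0.06, 0.17 and -0.03, and 58.1% of the Rab4b windows are shared with other genes, chiefly Gm21983 on the same strand. The epithelial Rab25 and the neuronal Rab15 had too few counts to be tested.

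Late endosomal, lysosomal and autophagic members were split, with 2 higher, 2 lower and 2 uncalled of 6 tested and a median log2 fold change of -0.05. Of all tested genes 30.3% were called higher and 33.8% lower by TMM. With total count scaling 1 of the 6 was higher and 4 lower, beside 1988 and 8457 of all 13847 genes. Rab7 (chromosome 6, 87999106 to 88045270), the principal GTPase of late endosomes and of their fusion with lysosomes, had a CPM of 263, 224, 254 and 232 in vehicle and 223, 234, 239 and 233 after LPS. The groups overlapped almost wholly, and the log2 fold change of -0.07 did not pass the test (edgeR adjusted p = 0.555), although with total count scaling it was called lower at -0.74. Rab7 shares 12.7% of its windows with other genes, chiefly the pseudogene Rab7-ps1. Rab7b, which works in transport from endosomes to the trans-Golgi network, went from a mean CPM of 333 ± 24.2 to 170 ± 63.8, a log2 fold change of -0.97 (adjusted p = 0.0064). Its LPS libraries were unequal, from 93.6 in replicate 1 to 249 in replicate 3, yet all below the lowest vehicle library at 303.

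Rab9 (chromosome X, 166457253 to 166479867), needed for the return of mannose 6-phosphate receptors from late endosomes to the Golgi, fell as well. Its CPM was 15.0, 13.1, 15.8 and 14.4 in vehicle and 4.48, 5.99, 11.2 and 6.70 after LPS. LPS replicate 3 came closest to the vehicle libraries without reaching them. The fall was a log2 fold change of -1.03 (SE 0.25, edgeR adjusted p = 0.00481).

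Rab29 (chromosome 1, 131867224 to 131872887), which recruits the kinase Lrrk2 to membranes, rose. Its CPM was 28.7, 29.3, 33.6 and 25.7 in vehicle and 49.7, 58.8, 85.2 and 59.7 after LPS. All LPS libraries were above all vehicle libraries, with replicate 3 highest. The log2 fold change was 1.11 (SE 0.17, edgeR adjusted p = 2.72e-04) by TMM and 0.42, still called, with total count scaling. Rab24, an autophagy-related member, was called higher at 0.52 (adjusted p = 0.0184), but 62.4% of its exon bases are overlapped by the opposite-strand gene Prelid1, itself at a mean CPM of 21.9 in vehicle and 53.4 after LPS. Its call did not hold with upper quartile normalization (adjusted p = 0.0722).

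Rab32 (chromosome 10, 10545002 to 10558265), a GTPase of lysosome-related organelles and phagosomes, was the second most abundant member per length in vehicle. Its CPM was 246, 232, 276 and 259 in vehicle and 299, 221, 220 and 247 after LPS. The groups overlapped and the log2 fold change of -0.04 did not pass the test (edgeR adjusted p = 0.809), although with total count scaling it was called lower at -0.71. Its paralog Rab38 and the neuronal Rab9b had too few counts to be tested.

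The group listed under endoplasmic reticulum and Golgi traffic held the largest fall of the tested members, that of Rab34, and a large rise, that of Rab6a. Of 14 tested members 4 were higher, 2 lower and 8 uncalled (median log2 fold change 0.08). Among all tested genes 30.3% were higher and 33.8% lower. With total count scaling 1 of the 14 was higher and 9 lower, beside 1988 and 8457 of all 13847 genes. Rab6a (chromosome 7, 100607410 to 100641268), which directs retrograde traffic at the Golgi and the exit of secretory carriers, had a CPM of 80.1, 84.5, 74.9 and 87.5 in vehicle and 199, 168, 291 and 173 after LPS. LPS replicate 3 was well above the other LPS libraries, all of which exceeded vehicle. Rab6a thus had a log2 fold change of 1.34 (SE 0.18, edgeR adjusted p = 1.18e-04). The opposite-strand gene Mrpl48 overlaps 19.0% of its exon bases and was at a mean CPM of 8.54 in vehicle and 6.18 after LPS. Gm13082, which shares windows with Rab6a, was at 2.85 in vehicle and 7.59 after LPS.

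Rab6b (chromosome 9, 103111787 to 103185276), the paralog of Rab6a that is abundant in brain, fell. Its CPM was 30.97, 28.1, 21.2 and 32.0 in vehicle and 7.30, 6.10, 4.10 and 6.60 after LPS. Replicate 3 was the lowest library in both groups, and the groups did not overlap. The summed CPM of 8 neuronal markers was also lowest in replicate 3 of both groups, at 8.14 in vehicle and 3.12 after LPS. The part of other cells in the change of Rab6b was not tested. Its log2 fold change was -2.22 (SE 0.20, edgeR adjusted p = 1.19e-05).

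Rab34 (chromosome 11, 78188430 to 78192193), which acts in lysosome positioning and in the early steps of cilium formation, had the largest fall of the tested members. Its CPM was 21.5, 15.7, 16.7 and 20.7 in vehicle and 2.63, 2.67, 2.61 and 2.27 after LPS. The LPS libraries were close to each other and far below vehicle, a 7.32-fold difference of the means. In the fit its log2 fold change was -2.87 (SE 0.16, edgeR adjusted p = 5.99e-07).

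Rab1a (chromosome 11, 20201432 to 20226856), essential for transport from the endoplasmic reticulum to the Golgi, had a CPM of 303, 314, 362 and 303 in vehicle and 485, 462, 639 and 494 after LPS. Replicate 3 was the highest library of both groups, and the groups did not overlap. The log2 fold change was 0.70 (SE 0.14, edgeR adjusted p = 0.00142) by TMM and 0.01, uncalled, with total count scaling. Its paralog Rab1b was at a mean CPM of 149 in vehicle and 164 after LPS and was not called (log2 fold change 0.14, adjusted p = 0.379). LPS replicate 3 held only 125 for Rab1b, and without that library the log2 fold change was 0.26 (adjusted p = 0.0292).

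Rab18, a GTPase of lipid droplets and the endoplasmic reticulum, went from a mean CPM of 95.8 to 140, a log2 fold change of 0.55 by TMM and -0.14, uncalled, with total count scaling. Rab2b was called higher at 0.64 (adjusted p = 0.0206) from a mean CPM of 2.81 to 4.39, and 64.0% of its exon bases are overlapped on the opposite strand by Tox4 and Gm43766. Tox4 was at a mean CPM of 53.6 in vehicle and 81.8 after LPS, and the Rab2b call did not hold with upper quartile normalization (adjusted p = 0.0574) or without the filter on low counts (adjusted p = 0.0592). Rab2a, Rab19, Rab30, Rab33b, Rab39, Rab39b and Rab43 were not called by TMM. Of these Rab43 shares 74.5% of its windows, with Gm45140 on the same strand. Rab30 was lower without vehicle replicate 3 (log2 fold change -1.21, adjusted p = 0.0183), and Rab39b was lower with the replicate number as a block (-1.29, adjusted p = 0.0364) and without vehicle replicate 3 (-1.64, adjusted p = 0.0272). Rab33a and Rab36 had too few counts to be tested, with 16, 10, 15 and 12 counts for Rab36 in vehicle and 7, 1, 7 and 6 after LPS.

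No tested member of regulated secretion was called higher. Of 5 tested among 9, 3 were lower and 2 uncalled (median log2 fold change -0.86), beside 33.8% of all tested genes called lower. With total count scaling all 5 were lower, and so were 8457 of all 13847 genes. Rab27a (chromosome 9, 73044854 to 73097629), which docks lysosome-related organelles and multivesicular endosomes at the plasma membrane, had a CPM of 4.44, 5.46, 6.94 and 6.67 in vehicle and 1.79, 2.01, 1.17 and 2.43 after LPS. The lowest vehicle library lay above the highest LPS library. Rab27a had a log2 fold change of -1.67 (SE 0.26, edgeR adjusted p = 3.62e-04).

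The Rab3 genes, which act on synaptic vesicles and secretory granules, were at lower levels after LPS in the means of all 4 tested. Rab3d was the most abundant, at a mean CPM of 35.2 in vehicle and 19.4 after LPS (log2 fold change -0.86, adjusted p = 0.00188). Rab3a went from 4.52 to 2.59 (-0.81, adjusted p = 0.0069). Rab3b and Rab3c, at a mean CPM of 0.925 and 2.06 in vehicle, did not pass the test, with log2 fold changes of -0.78 (adjusted p = 0.188) and -1.80 (adjusted p = 0.081). Rab3c was called lower with the replicate number as a block (-2.11, adjusted p = 0.0157) and without LPS replicate 1 (-2.85, adjusted p = 0.0164), in which it stood at 1.55 against 0.0466 to 0.703 in the other LPS libraries. The summed CPM of 8 neuronal markers was 8.14 to 23.5 in vehicle and 3.12 to 11.5 after LPS. Of these markers 4 were called lower, none higher and none was at or under 3 counts throughout. The sums of microglial and oligodendrocyte markers given above were lower after LPS as well. Vehicle replicate 3 had the lowest vehicle level of the neuronal markers and of Rab3a, Rab3b and Rab3c, but for Rab3d it stood at 38.2, the second highest of 42.7, 28.6, 38.2 and 31.4. The part of other cells in the change of the Rab3 genes was not tested.

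The secretory members Rab26, Rab27b, Rab37 and Rab44 had too few counts to be tested. Rab37, a GTPase of secretory granules, held 0, 1, 3 and 4 counts in vehicle and 7, 3, 18 and 10 after LPS. Its CPM did not overlap between the groups, and in the edgeR fit without the filter on low counts it was called higher (log2 fold change 2.74, SE 0.77, adjusted p = 0.0101), the sole call among the 13 members left out by the filter. Among the remaining members Rab28, a ciliary GTPase, was at a mean CPM of 21.1 in vehicle and 30.7 after LPS, a log2 fold change of 0.54 (adjusted p = 0.00598) that was -0.15, uncalled, with total count scaling. Rab40c, which carries a SOCS box and joins a ubiquitin ligase, went from 36.8 to 19.9 (-0.88, adjusted p = 1.61e-04). Rab23, a regulator of Hedgehog signaling, was not called by TMM (-0.20, adjusted p = 0.33). Rab42 and Rab40b had too few counts, Rab40b with 1, 5, 1 and 2 counts in vehicle and none in any LPS library.

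LPS replicate 3 had the highest LPS level for 24 of the 46 tested Rab genes and the lowest for 11. These ranks depend on the scaling, as its TMM factor was 0.701 against 0.816 to 0.833 in the other LPS libraries. The members took 0.474% of its unscaled counts, within the LPS range of 0.468% to 0.487%. Among the 18 genes called higher it was the highest LPS library for 12. Without this library 19 Rab genes were called higher and 10 lower.

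Levels were compared between genes per kilobase of exon. Rab5c had the highest level in vehicle, at 144 ± 11.0 CPM per kb (SD, n = 4), and Rab32 followed at 108 ± 8.02. Rab7 at 93.2 ± 6.93 and Rab31 at 93.1 ± 5.82 differed by less than their spread, as did Rab1a at 84.4 ± 7.45 and Rab8b at 80.7 ± 10.3. After LPS Rab5c at 251 ± 34.2 and Rab31 at 245 ± 19.3 were not separable, and Rab8b at 151 ± 37.0 and Rab1a at 137 ± 21.2 came next. Rab32 moved from rank 2 to rank 5 and Rab7 from rank 3 to rank 8, while neither passed the test by TMM. With total count scaling both were called lower, at -0.71 and -0.74. Rab20 climbed from rank 19 to rank 9 and Rab7b dropped from rank 7 to rank 15. The order of the genes within a single library does not depend on the scaling.

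**Figure D3:**
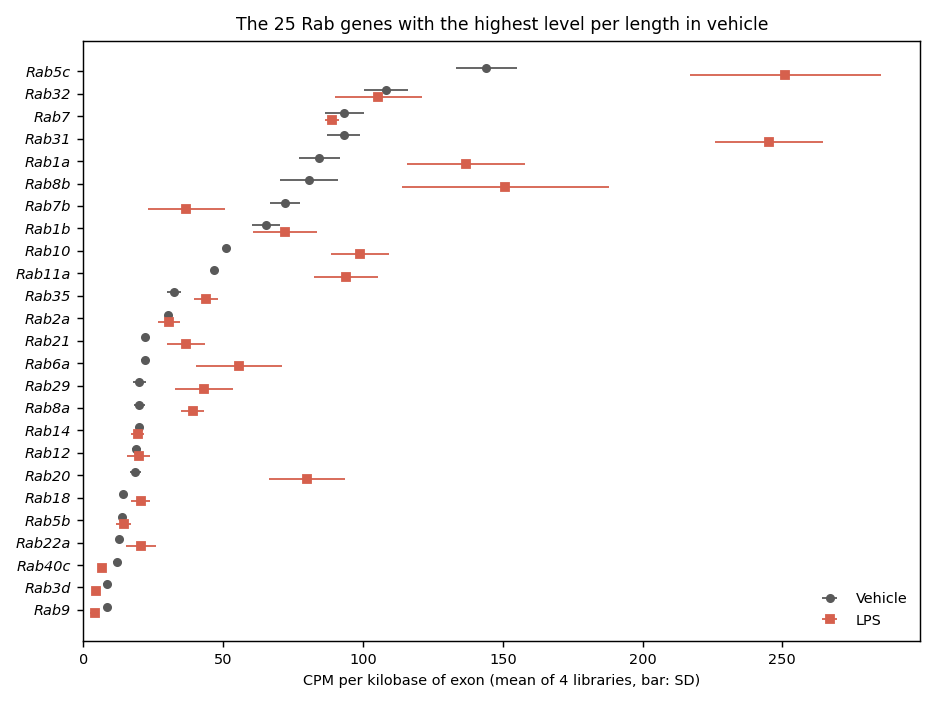
Level per kilobase of exon of the 25 most abundant Rab genes in vehicle (CPM per kb, TMM library sizes, points are means of 4 libraries and bars are SD). Rab5c leads in vehicle, Rab5c at 251 and Rab31 at 245 are not separable after LPS, and Rab32 stays at 106 against 108 in vehicle; with total count scaling all LPS points move left relative to vehicle.

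Ratios of paralogs within a library are free of the scaling factor. They are given as a description, with no test, because the pairs were looked at after their values had been seen. All 13 pairs that share a number and have both genes tested at a mean CPM of at least 1 were taken. The log2 ratio of Rab6a to Rab6b was 1.56 ± 0.20 in vehicle (SD, n = 4) and 5.10 ± 0.70 after LPS, the largest change of the 13 at 3.55. The ratio of Rab11a to Rab11b went from 2.25 to 3.64, that of Rab7 to Rab7b from -0.45 to 0.54, that of Rab5a to Rab5b from -0.53 to 0.17 and that of Rab1a to Rab1b from 1.11 to 1.67. The ratio of Rab2a to Rab2b went down from 4.53 to 3.90. In each of these pairs the ratios of the groups did not overlap. Of their members, Rab2b shares 57.0% of its windows with other genes, Rab6a 19.0%, Rab11b 13.6% and Rab7 12.7%. The call of Rab2b did not hold under every refit. Per kilobase of exon, Rab7 exceeded Rab7b in the means of both groups and Rab5b exceeded Rab5a. In the other pairs the groups overlapped. Rab8a to Rab8b was -2.03 in vehicle and -1.94 after LPS, and Rab5a to Rab5c was -2.98 and -3.03.

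**Figure D4:**
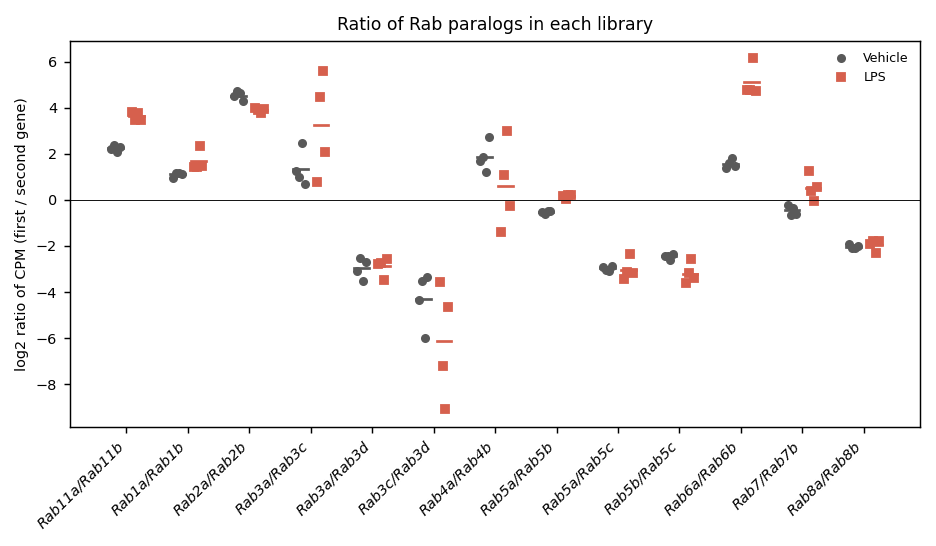
Log2 ratio of CPM of 13 pairs of Rab paralogs in each library, the first gene over the second, with circles for vehicle, squares for LPS and lines for means of 4. The groups separate for Rab6a/Rab6b, Rab11a/Rab11b, Rab7/Rab7b, Rab5a/Rab5b, Rab1a/Rab1b and Rab2a/Rab2b; the ratio does not depend on library scaling.

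Transcripts of the proteins that run the Rab cycle changed in both directions. Of 149 listed regulators and effectors 134 were tested, 47 were higher, 47 lower and 40 uncalled, a called share of 70.1% against 64.1% of all genes, and their median log2 fold change was 0.03. With total count scaling 19 were higher and 83 lower. The counts of each list below stand beside 30.3% higher and 33.8% lower of all tested genes by TMM. With total count scaling they stand beside 1988 and 8457 of all 13847 genes. Of 8 genes for prenylation, escort and GDI proteins 2 were higher and 1 lower. Rabif, a chaperone of nucleotide-free Rabs, and Rabggta, the alpha subunit of the geranylgeranyl transferase, were higher by TMM at 0.78 and 0.55, neither called with total count scaling, where Rabggta turned to -0.12. Chml, an escort protein, was lower at -1.33.

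Exchange factors held 12 rises and 14 falls among 34 tested by TMM, and 5 rises and 21 falls with total count scaling. Rabgef1, the Rabex-5 exchange factor of Rab5, had a CPM of 33.6, 32.9, 31.6 and 30.8 in vehicle and 157, 141, 163 and 138 after LPS. The groups were far apart and the log2 fold change was 2.22 (edgeR adjusted p = 1.88e-07). Dennd1a, an exchange factor of Rab35, and Dennd6b followed at 1.57 and 1.54. Rab3il1, an exchange factor of Rab8, had a CPM of 149, 153, 196 and 152 in vehicle and 3.35, 10.4, 5.55 and 9.19 after LPS, a log2 fold change of -4.51 (edgeR adjusted p = 2.69e-06). Dennd2d fell by 2.32 on the log2 scale. Of 14 subunits of TRAPP, the complex that activates Rab1 and Rab11, 6 were higher and 2 lower by TMM, and 2 higher and 9 lower with total count scaling. The rises were led by Trappc4 at 1.41, Trappc5 at 1.13 and Trappc6b at 0.75. Trappc9 at -0.59 and Trappc12 at -0.45 were the 2 falls, and Trappc6b was not called with total count scaling.

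GTPase-activating proteins and related TBC domain proteins held 11 rises and 15 falls among 37 tested, and with total count scaling 1 rise and 25 falls. Tbc1d9 had a CPM of 81.8, 52.7, 71.6 and 54.8 in vehicle and 264, 293, 470 and 274 after LPS, a log2 fold change of 2.32 (edgeR adjusted p = 1.88e-05). Usp6nl, a GAP with a role in endocytosis, and Tbc1d1 were higher at 1.03 and 0.94 by TMM, neither called with total count scaling. Tbc1d4 (AS160), a GAP of Rab8a, Rab10 and Rab14, went from a mean CPM of 68.8 to 2.68, a log2 fold change of -4.68 (edgeR adjusted p = 6.67e-07). Tbc1d8 at -4.02 and Tbc1d16 at -3.93 were the next largest falls.

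All 3 genes listed for phosphorylation of Rab proteins were called by TMM, where 64.1% of all tested genes were called. With total count scaling 1 of the 3 was called higher and 1 lower. Ppm1h, the phosphatase that removes phosphate from Rab8 and Rab10, was at a mean CPM of 129 ± 11.2 in vehicle and 399 ± 85.5 after LPS, a log2 fold change of 1.63 (edgeR adjusted p = 2.17e-05). Lrrk1, a kinase of Rab7, fell from 58.1 to 20.4 (-1.51). Lrrk2, the kinase of Rab8, Rab10 and Rab29, was 8.95, 6.36, 7.83 and 7.09 in vehicle and 23.3, 7.62, 43.3 and 10.0 after LPS. Its groups overlapped, through LPS replicate 2, and although called by TMM at 1.48 (edgeR adjusted p = 0.0215) it was not with total count scaling at 0.75.

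Effectors held 14 rises and 14 falls by TMM among 38 tested of 51 listed, and 10 rises and 21 falls with total count scaling. Rab11fip1, an adaptor of Rab11 on recycling endosomes, had a CPM of 16.5, 10.3, 10.0 and 10.9 in vehicle and 139, 88.8, 164 and 103 after LPS, a log2 fold change of 3.37 (edgeR adjusted p = 2.75e-06). Inpp5b, an inositol phosphatase that binds several Rabs, went from a mean CPM of 44.0 to 451 (3.36), and Micall2, an effector of Rab8 and Rab13, from 2.78 to 21.1 (2.92). Myo5a, the myosin that carries Rab27a- and Rab11-bound vesicles, fell from 465 to 132 (-1.82). Rab11fip4 and Rilp, the effector of Rab7 at lysosomes, fell from 1.99 to 0.585 (-1.78) and from 2.81 to 0.925 (-1.60).

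**Figure D5:**
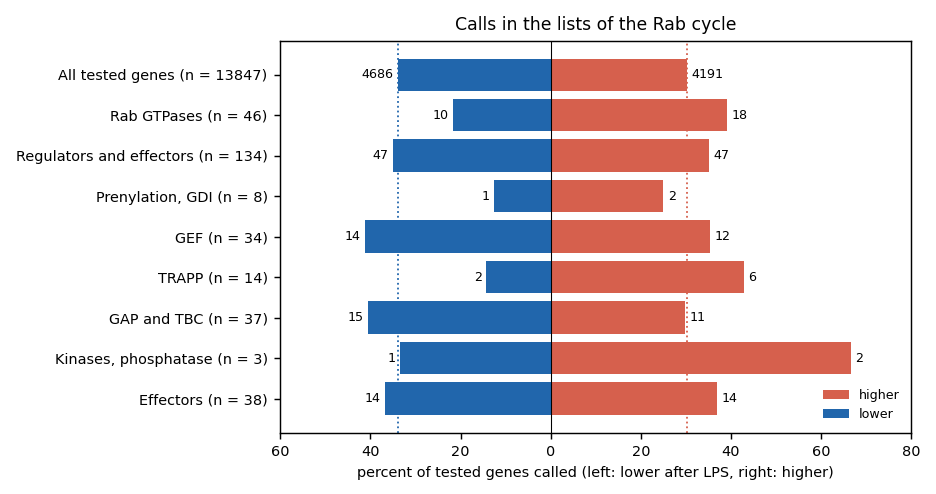
Percent of tested genes called higher (right) or lower (left) after LPS by TMM for all genes, the Rab genes and each list of the Rab cycle, with the number of called genes at each bar and n the number tested. Dotted lines mark all genes at 30.3% and 33.8%. With total count scaling 7 of 46 Rab genes were called higher and 26 lower, beside 1988 and 8457 of all 13847 genes.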

How the data were processed

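The authors aligned single-end 50-base reads with GSNAP to GRCm38 through HTSeqGenie, kept uniquely aligned reads and deposited raw counts per Ensembl gene for all 8 libraries; the annotation release and the use of strand in counting are not given in the sources used here. The labels name a stranded kit and the methods another. Symbols, lengths and exon overlaps were taken from GENCODE vM21, which matched 52403 of 52636 identifiers. Counts were tested with edgeR 4.0.16 (R 4.3.3), TMM scaling and filterByExpr (minimum count 10, minimum total 15), without covariates, and the script was tested on simulated data. In the simulated data few genes changed and as many were set to rise as to fall, so they could not check the scaling. A shared window is a 50-base exon stretch that occurs in another gene. Alternatives were DESeq2 1.42.0, upper quartile normalization, no filter, other thresholds, a replicate block, each library left out and, chosen after seeing the data, total count scaling and removal of genes sharing over 10% of windows. Depth was 20071921 to 30604447 counts per library, and the p-values measure the spread between these libraries only.

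Values in every library are given for called members with an absolute log2 fold change of at least 1 and a mean CPM of at least 1, for the 5 members highest per length in vehicle and for paralogs called in opposite directions; of each regulator list the 3 largest called rises and falls are named, at a mean CPM of at least 1, apart from a gene that is not reported here. The members, lists, markers and motifs were chosen with earlier results of these data known. Libraries of the same number deviated together (r = 0.373, 0.196, 0.171 and 0.108 for replicates 1 to 4 over 8010 genes). The replicate block used the numbers in the labels, which do not say that libraries of the same number shared a culture. Vehicle 2 with LPS 4 (0.146) and vehicle 4 with LPS 2 (0.137) correlated more than the libraries numbered 4 did.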

Additional observations from a re-analysis of the deposited data

Results flagged for a closer look

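A library far from the other 3 of its group was looked for in 92 sets of 4 CPM values, of the 46 tested Rab genes in both groups, and 13 were found. For independent sets chance gives about 1 in 20. These sets come from the same 8 libraries, so the 13 cannot be judged against that rate. Vehicle replicate 3 was the distant library in 6 of them. It was the highest for Rab18 (100.9), Rab19 (7.002), Rab43 (4.63) and Rab8b (455), and the lowest for Rab3a (3.30) and Rab30 (0.349). LPS replicate 3 was the distant library in 5 more. It was the highest for Rab18 (174), Rab19 (6.57), Rab21 (237) and Rab5a (89.7), and the lowest for Rab1b (125). Rab4a was highest in vehicle replicate 1 (5.70), and Rab34 was lowest in LPS replicate 4 (2.27), against 2.61 for the next LPS library. No call of Rab18, Rab21, Rab5a, Rab8b, Rab3a, Rab4a or Rab34 was lost when any single library was left out.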

How the results depend on the processing

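With each library left out in turn, 18 to 19 Rab genes were higher and 10 to 12 lower, and with the other alternatives that centre on the bulk of genes 16 to 18 and 10 to 12. Of 28 called members 26 kept their call under all 12 of these refits. The exceptions were Rab24 and Rab2b. The pairing was kept as an alternative, and with the replicate block 18 were higher and 12 lower, adding Rab3c (-2.11) and Rab39b (-1.29) and changing no other Rab call. Without members sharing over 10% of windows, 14 were higher and 9 lower. Requiring an absolute log2 fold change of at least 1 left 5 Rab genes higher and 5 lower, 20 and 25 regulators and effectors, and 2224 and 2998 of all genes. Total count scaling gave 7 Rab genes higher and 26 lower, 19 and 83 regulators and effectors, and 1988 and 8457 of all genes, where by construction the scaling factors alone differ. Under it the log2 fold change turned negative for Rab12 (-0.63), Rab13 (-0.51), Rab18 (-0.14), Rab1b (-0.52), Rab24 (-0.15), Rab28 (-0.15), Rab2a (-0.67), Rab2b (-0.0522), Rab33b (-0.54), Rab35 (-0.25), Rab43 (-0.37), Rab4b (-0.061) and Rab5b (-0.63). Upper quartile normalization, which shifted all genes by -0.16, turned the uncalled Rab12 (-0.11), Rab1b (-0.0074), Rab2a (-0.15), Rab33b (-0.017) and Rab5b (-0.10), and it called Rab7 lower (-0.22, adjusted p = 0.0476). DESeq2 turned the uncalled Rab14 (0.0217), Rab32 (0.0189) and Rab39 (0.0311), and no filter turned Rab2a (-0.0184). With libraries left out the log2 fold change crossed 0 for the uncalled Rab12 (-0.0798 to 0.17), Rab14 (-0.11 to 0.0378), Rab19 (-0.46 to 0.30), Rab2a (-0.0717 to 0.0712), Rab32 (-0.13 to 0.0723), Rab39 (-0.0671 to 0.0867), Rab5b (-0.0732 to 0.14) and Rab7 (-0.0806 to 0.0128), and the change in log2 ratio did so for Rab3a over Rab3d (-0.12 to 0.27) and Rab5a over Rab5c (-0.27 to 0.0876). Apart from the scaling, the cause of these changes was not tested. Depth limits the 13 members below the filter on low counts, of which Rab37 alone was called without it (log2 fold change 2.74).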
